A study of Mus musculus with 21 samples.

Results

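Ldha, Ldhb, Slc16a1, Slc16a3, Pdk1, Hk1 and Hk2 encode the enzymes and carriers that make, export or favour lactate, together with the hexokinases that have a high affinity for glucose. They were chosen by gene symbol, through the RefSeq accession given for each array probe, and 7 of the 20145 symbols on the array belong to them, read by 11 of its 55681 probes. Where a gene had several probes, the brightest over all 21 arrays was used: Ldha has 3 probes, Slc16a3 and Hk1 have 2 each, and Ldhb, Slc16a1, Pdk1 and Hk2 have 1 each. Every level is the log2 processed signal minus the 75th percentile of its array, so a level of 0 lies at that percentile. Levels of different genes come from different probes and are not set against each other. RefSeq (GRCm38.p6) places Ldha at chr7:46842274-46855627, Ldhb at chr6:142490249-142507957, Slc16a1 at chr3:104638664-104658462, Slc16a3 at chr11:120948484-120959000, Pdk1 at chr2:71873215-71903858, Hk1 at chr10:62268855-62379920 and Hk2 at chr6:82725025-82774454, and the exon each probe reads was not analysed here.

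All RNA came from MIN6m9 cells, a subclone of the mouse insulinoma-derived beta cell line MIN6, and 21 arrays of 1 colour were hybridised. In a first experiment, on fatty acids, wild-type cells received 400 uM palmitate, a saturated fatty acid, or 400 uM oleate, which is monounsaturated, for 48 h, or were left untreated, and each group has 3 arrays. In a second, on PERK, cells with the transgene Fv2E-PERK were harvested 6, 12, 24 or 48 h after 1 nM AP20187 or were mock-treated, wild-type cells were mock-treated too, and each of these 6 groups has 2 arrays. Fv2E-PERK is a form of the stress kinase PERK that is joined into active pairs by the dimeriser AP20187, which turns on the integrated stress response without misfolded protein, and the vehicle was ethanol. The sources used here do not give the transgene's promoter, whether the line is 1 clone, or when untreated and mock cells were harvested. No wild-type cells given AP20187 are analysed here, so an effect of the dimeriser on cells without the transgene cannot be told apart from that of Fv2E-PERK. The labels do not say whether replicates were separate cultures, and the p-values therefore cover the spread between these arrays only, which may be technical.

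Lactate dehydrogenase interconverts pyruvate and lactate: LDHA forms the muscle-type subunit and LDHB the heart-type subunit of the enzyme. SLC16A1 (MCT1) and SLC16A3 (MCT4) carry lactate and pyruvate across the plasma membrane with a proton, and PDK1 phosphorylates and so inhibits pyruvate dehydrogenase, which keeps pyruvate from being oxidised in the mitochondria. Hexokinases 1 and 2 phosphorylate glucose already at low concentrations. In adult islets Ldha, Slc16a1 and the high-affinity hexokinases are counted among the disallowed genes, kept low so that insulin release follows blood glucose and not circulating pyruvate or lactate. MIN6m9 is a tumour line, and in it Ldha lay above the 75th percentile on every array where it was measured, by its brightest probe.

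The promoters of the 3 genes that fell most after AP20187 are shown because Ldha, Slc16a3 and Pdk1 are well-known targets of hypoxia-inducible factor, whose response element has the core ACGTG or GCGTG. RefSeq promoter windows (GRCm38.p6, 300 bases each, most of them before a transcript's start, 5′ to 3′ on the gene's strand) were found for all 7 genes, 10 windows in all. Capitals mark every ACGTG and GCGTG read on either strand, so that CACGT and CACGC are matches on the other strand and CACGTG, the E-box, is a match on each.
Ldha, chr7:46845554-46845853, plus strand: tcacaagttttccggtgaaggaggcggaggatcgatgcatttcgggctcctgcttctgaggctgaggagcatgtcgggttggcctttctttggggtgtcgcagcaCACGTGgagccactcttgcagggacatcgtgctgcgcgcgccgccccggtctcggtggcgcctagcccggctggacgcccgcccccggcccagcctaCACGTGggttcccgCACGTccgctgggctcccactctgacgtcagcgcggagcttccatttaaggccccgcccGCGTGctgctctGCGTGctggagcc
Slc16a3, chr11:120948817-120949116, plus strand: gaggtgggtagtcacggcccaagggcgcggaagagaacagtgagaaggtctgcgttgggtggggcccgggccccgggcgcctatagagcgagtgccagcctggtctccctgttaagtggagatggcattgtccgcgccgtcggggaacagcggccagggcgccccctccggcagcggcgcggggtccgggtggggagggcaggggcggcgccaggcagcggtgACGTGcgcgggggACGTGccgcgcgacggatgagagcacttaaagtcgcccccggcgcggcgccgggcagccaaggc
Pdk1, chr2:71872974-71873273, plus strand: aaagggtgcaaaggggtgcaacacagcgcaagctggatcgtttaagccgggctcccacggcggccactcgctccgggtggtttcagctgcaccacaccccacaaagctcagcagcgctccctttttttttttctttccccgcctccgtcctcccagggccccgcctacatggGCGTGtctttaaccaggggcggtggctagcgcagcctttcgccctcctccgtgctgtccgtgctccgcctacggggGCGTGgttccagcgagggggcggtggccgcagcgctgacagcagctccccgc
The Ldha window holds 5 marked stretches, among them 2 E-boxes, and the windows of Slc16a3 and Pdk1 hold 2 each, ACGTG in Slc16a3 and GCGTG in Pdk1. The second Ldha window (chr7:46846832-46847131) holds 2 stretches, and the second Pdk1 window (chr2:71874654-71874953) holds 0. Of all 32851 windows of this length, 43.77% hold at least 1 such core, 19.62% hold ACGTG, 32.39% hold GCGTG and 7.15% hold an E-box. The window of Slc16a1 holds 4 stretches, with 1 E-box, that of Hk2 holds 2, that of Ldhb 1, and those of Hk1 0 and 4. TGATGNAA, the core of the element bound by ATF4, was in 0 of the 10 windows and in 3.969% of all windows. Overlaps between motifs were counted under each motif, and a match describes letters, not binding. The part of hypoxia-inducible factor in the falls of these genes was not tested.

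On these arrays 46.8% to 56.9% of probes were well above background, 0 were saturated, and the 75th percentile of signal lay between 336 and 459 in the fatty acid experiment and between 380 and 823 in the PERK experiment. The number of arrays, 2 or 3 a group, limits the precision. In the fatty acid experiment palmitate replicate 3 lay on a slide of its own. In the PERK experiment the Fv2E-PERK mock and the 6, 12 and 24 h groups shared a slide, and the 48 h and wild-type mock groups shared another, so that slide and group cannot be told apart for 48 h against the Fv2E-PERK mock, for 48 h against 6 h, or for 1 mock against the other. Of 10 beta cell markers, 8 to 10 were well above background on every array, with medians between 5.28 and 5.70 in all groups without AP20187. Muscle transcripts, most of which a beta cell line should lack, differed between groups of the fatty acid experiment, and their values stand beside the results there. Some were present in the PERK experiment too, with 4 to 6 of 10 skeletal and 2 to 5 of 9 heart muscle genes well above background. Markers of exocrine cells were well above background for 1 or 2 of 5 genes, those of other islet cells for 4 of 5, and those of mesenchymal, endothelial and immune cells for 2 to 5 of 7.

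After AP20187 Ldha, Slc16a3 and Pdk1 fell at the first time measured. Slc16a3 fell 18.5-fold and Pdk1 and Ldha fell 4.47-fold and 3.53-fold at 6 h, and at 48 h the falls were 33.0-fold, 16.1-fold and 11.3-fold. Ldhb fell 2.21-fold at 6 h and was nearer to the mock level at 48 h, with calls that depended on how the arrays were scaled (-0.48 at 6 h, not past the threshold, with spike-in scaling). Hk1 was called higher than in the mock at 24 and 48 h, by probes that disagreed at 24 h (0.47 and 0.04) and with the 48 h call lost without 1 mock array, and Hk2 was not well above background on any array.

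Ldha, whose product turns pyruvate into lactate, had levels of 8.61 and 8.63 in Fv2E-PERK mock cells, then after AP20187 6.87 and 6.73 (6 h), 6.25 and 6.00 (12 h), 5.78 and 5.77 (24 h), and 5.23 and 5.01 (48 h), while wild-type mock cells had 8.52 and 8.66. The levels lay lower at each later time, with no overlap between any neighbouring times. Relative to the Fv2E-PERK mock the log2 changes were -1.82, -2.50, -2.85 and -3.50 in order of time, each with an SE of 0.11, and limma's adjusted p ran from 5.9e-06 at 6 h to 4.1e-07 at 48 h. The 6 h cells thus held 28.3% of the mock level and the 12 h cells 17.7%. By this probe, with percentile scaling, 52% of the log2 change at 48 h had been reached at 6 h, a share that depends on the probe and the scaling. At 48 h Ldha differed from 6 h by -1.68 (adjusted p = 1.3e-05), and from wild-type mock cells, hybridised on the same slide, by -3.47 (adjusted p = 2.3e-07). The other Ldha probes gave changes of -2.24 and -2.18 at 6 h and -3.55 and -3.44 at 48 h.

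Ldhb, the subunit found in tissues that oxidise lactate, had levels of 1.58 and 1.47 in Fv2E-PERK mock cells, then after AP20187 0.41 and 0.36 (6 h), 0.25 and 0.21 (12 h), 0.27 and 0.31 (24 h), and 0.86 and 0.83 (48 h), and wild-type mock cells had 1.16 and 1.03. All AP20187 arrays lay below all mock arrays, and those of 48 h lay above those of the earlier times. The changes from the Fv2E-PERK mock were -1.14, -1.29, -1.24 and -0.68 (SE 0.08), with adjusted p of 8.2e-06, 3.3e-06, 4.5e-06 and 1.1e-04 in limma's test. At 48 h the level was higher than at 6 h by 0.46 (adjusted p = 0.0011), and 48 h cells differed from wild-type mock cells by -0.25 (adjusted p = 0.019). When arrays were scaled on 7 spike-in probes in place of the 75th percentile, the Ldhb changes were -0.48, -0.57, -0.31 and -0.10 and none passed the threshold. That scaling moves the median of all entries tested to 0.44, 0.54, 0.73 and 0.52 at 6, 12, 24 and 48 h, against -0.23, -0.19, -0.20 and -0.07 with the percentile. Relative to the median of all entries, which does not depend on the scaling, Ldhb lay at -0.92 at 6 h and -0.61 at 48 h, and Ldha at -1.60 and -3.43.

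Slc16a3, the exporter of lactate in highly glycolytic cells, had levels of 5.55 and 5.58 in Fv2E-PERK mock cells, then after AP20187 1.43 and 1.29 (6 h), 1.58 and 1.07 (12 h), 1.23 and 1.51 (24 h), and 0.60 and 0.45 (48 h), and wild-type mock cells had 5.82 and 5.92. The groups at 6, 12 and 24 h overlapped, and the 48 h arrays lay below all of them. The changes from the mock were -4.21, -4.24, -4.20 and -5.05 (SE 0.17), with adjusted p between 1.1e-06 and 4.8e-07 in limma's test, and its second probe gave -4.22 at 6 h and -5.11 at 48 h. At 6 h Slc16a3 had the lowest change of all 23386 entries tested, and it ranked 2, 5 and 2 from the lowest at 12, 24 and 48 h. The cells at 6 h held 5.40% of the mock level, and with percentile scaling 83.45% of the log2 change at 48 h had been reached. That share depends on the scaling, and the 48 h arrays lay on another slide than the mock and 6 h arrays. Between 48 and 6 h the difference was -0.83 (adjusted p = 0.0027), and the 48 h cells differed from wild-type mock cells by -5.35, a 40.7-fold difference (adjusted p = 1.8e-07).

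Slc16a1, the carrier usually named as disallowed in beta cells, was dim, with levels of -3.24 and -1.95 in Fv2E-PERK mock cells, then after AP20187 -3.88 and -3.73 (6 h), -4.21 and -4.39 (12 h), -4.21 and -3.87 (24 h), and -3.00 and -3.03 (48 h), and -2.72 and -3.14 in wild-type mock cells. The replicates of the Fv2E-PERK mock lay far apart, and the 48 h arrays lay between them. The changes were -1.21, -1.71 and -1.44 at 6, 12 and 24 h (SE 0.36; adjusted p = 0.017, 0.0030 and 0.0071 in limma's test) and -0.42 at 48 h (adjusted p = 0.336). The call at 6 h rests on single arrays: without Fv2E-PERK mock replicate 2 the change was -0.57 (adjusted p = 0.050312), without 6 h replicate 1 it was -1.13 (adjusted p = 0.074), and the 48 h value turned to 0.23 without that mock array. In the PERK experiment leaving out an array leaves a group of 1, which is assumed to vary like the other groups. With spike-in scaling the changes at 6 and 24 h did not pass the threshold (-0.55 and -0.51), and that at 48 h turned to 0.17.

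Pdk1, whose product holds pyruvate back from oxidation, had levels of 3.04 and 2.91 in Fv2E-PERK mock cells, then after AP20187 0.87 and 0.76 (6 h), 0.27 and 0.10 (12 h), -0.05 and -0.18 (24 h), and -1.04 and -1.02 (48 h), while wild-type mock cells had 3.48 and 3.36. No neighbouring times overlapped, and the order of levels followed time. The changes were -2.16, -2.79, -3.09 and -4.01 (SE 0.09), with adjusted p from 1.6e-06 at 6 h to 1.3e-07 at 48 h in limma's test. At 48 h Pdk1 differed from 6 h by -1.85 (adjusted p = 4.6e-06), and relative to wild-type mock cells the 48 h cells were 21.9-fold lower (adjusted p = 4.3e-08). Its place from the lowest change moved from 163 at 6 h to 92, 43 and 6 of 23386 at 12, 24 and 48 h. With spike-in scaling the calls of Ldha, Slc16a3 and Pdk1 were kept at all 4 times, with changes at 6 and 48 h of -1.16 and -2.92 for Ldha, -3.55 and -4.46 for Slc16a3, and -1.50 and -3.42 for Pdk1.

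**Figure D1:**
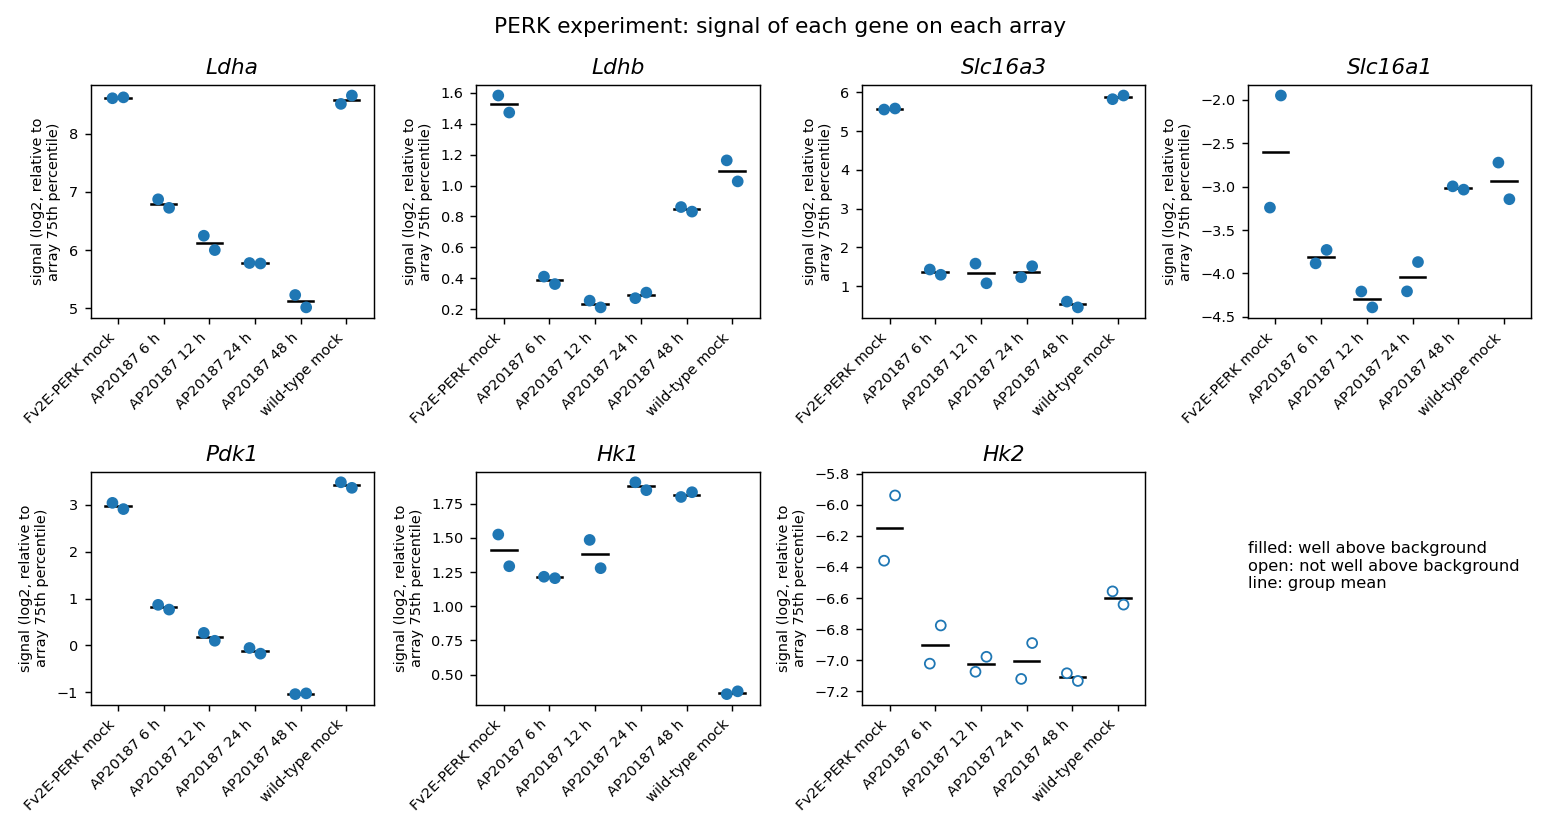
Level of each of the 7 genes (log2 signal minus the array's 75th percentile) on the 12 arrays of the PERK experiment, by group; filled points are well above background and open points are not. Ldha and Pdk1 step down at each time, Slc16a3 lies at 0.45 to 1.58 with AP20187 and at 5.55 and 5.58 in the Fv2E-PERK mock, and Hk2 is open on every array.

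Hk1, the high-affinity hexokinase of brain and red cells, had levels of 1.52 and 1.29 in Fv2E-PERK mock cells, then after AP20187 1.22 and 1.21 (6 h), 1.49 and 1.28 (12 h), 1.91 and 1.85 (24 h), and 1.80 and 1.83 (48 h), and 0.36 and 0.38 in wild-type mock cells. The arrays of 24 and 48 h lay above those of every other group, and the wild-type mock arrays lay below all. Limma called Hk1 higher at 24 h (0.47 ± 0.10 SE, adjusted p = 0.0031) and 48 h (0.41, adjusted p = 0.0070), and the values at 6 and 12 h were -0.20 (adjusted p = 0.110) and -0.03 (adjusted p = 0.822). Without Fv2E-PERK mock replicate 2 the 48 h value was 0.29 (adjusted p = 0.050738) and that at 6 h passed as lower (-0.31, adjusted p = 0.039), and with spike-in scaling the values at 6 and 12 h turned to 0.47 and 0.70 (adjusted p = 0.153 and 0.029). The second Hk1 probe was called lower at 6 h (-0.76, adjusted p = 0.0056) and 12 h (-0.58, adjusted p = 0.018), where the first was not called, disagreed with it at 24 h with 0.04 (adjusted p = 0.838), and was called higher at 48 h as well, by 0.60 (adjusted p = 0.018). Both probes called 48 h above 6 h, by 0.61 and 1.35.

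Hk2, the insulin-responsive hexokinase of muscle and of many tumours, was well above background on 0 of 21 arrays, with levels between -7.13 and -5.06. It was not tested, and no order is read from it.

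Of the 6 members tested, 5 were called lower at 6 h, where 64.9% of all entries tested were called, 24.9% higher and 40% lower. At 12 h 5 fell (67.7% of all called, 27.1% higher and 40.5% lower). At 24 h 5 fell and Hk1 rose (67.4% called, 40.4% lower and 27% higher), and at 48 h 4 fell and Hk1 rose (61.8% called, 34.6% lower and 27.2% higher). With spike-in scaling 3, 4, 3 and 3 members were lower and 0, 1, 1 and 1 higher at the 4 times, where 4.61%, 6.14%, 3.87% and 5.66% of all entries were lower and 38.9%, 44.9%, 55.5% and 43.1% higher. Calls over all entries were also split differently at 6 h with quantile normalization (28.9% higher and 30.1% lower) and at 48 h with normexp (22% higher and 45.4% lower). The median change of the members was -1.52, -2.10, -2.15 and -2.09 at 6, 12, 24 and 48 h, against -0.23, -0.19, -0.20 and -0.07 over all entries tested. From 6 to 48 h 3 members fell (Ldha, Slc16a3, Pdk1) and 2 rose (Ldhb, Hk1), where 60.8% of all entries were called, 33.2% higher and 27.6% lower, and with spike-in scaling only the 3 falls were called. The comparisons of the 4 times with the mock share its arrays. Against wild-type mock cells at 48 h 4 members were lower and Hk1 was higher by 1.45, a 2.73-fold difference, with 63.8% of all entries called, 27.5% higher and 36.3% lower. That comparison differs in the transgene as well as in AP20187, and Hk1 was already higher by 1.04 in the Fv2E-PERK mock than in the wild-type mock. Beta cell markers moved at the same times: 10, 9, 10 and 7 of 10 were called lower at 6, 12, 24 and 48 h (2, 3, 2 and 2 with spike-in scaling, with 1 higher at 48 h), their medians were 3.74 to 4.03 with AP20187 and 5.28 to 5.34 in the Fv2E-PERK mock, and their summed signal, in units of the 75th percentile, was 1428 to 1995 with AP20187 and 2201 to 2425 in that mock. These counts include Slc2a2 at 6 and 24 h and Ucn3 at 6, 12 and 24 h, which were well above background on no array compared, and the 7 at 48 h became 4 without 48 h replicate 1. The 7 at 48 h include Ucn3 too, which was well above background on no Fv2E-PERK mock array and for which no bound could be given. The part of the beta cell markers in these results was not tested, and fewer cells and less RNA per cell cannot be told apart.

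**Figure D2:**
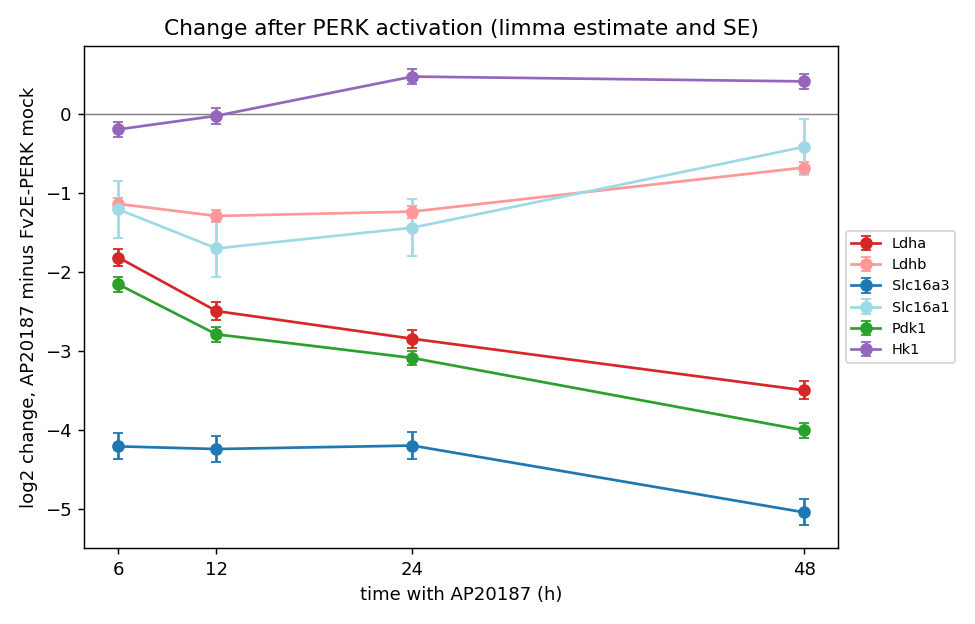
Log2 change of each member from the Fv2E-PERK mock at 6, 12, 24 and 48 h of AP20187, with bars of 1 SE from limma. Slc16a3 lies between -5.05 and -4.20, Pdk1 and Ldha go on falling to -4.01 and -3.50, Ldhb ends at -0.68 and Hk1 at 0.41.

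Without AP20187, Fv2E-PERK mock cells differed from wild-type mock cells in 3 of 6 members, where 20% of all entries were called, 9.23% higher and 10.8% lower (4.58% and 1.46% with spike-in scaling). Hk1 was 2.06-fold higher in Fv2E-PERK mock cells (1.04 ± 0.10 SE, adjusted p = 2.7e-04), and its second probe gave 0.83 (adjusted p = 0.015). Ldhb was higher by 0.43 (adjusted p = 0.0063) and Pdk1 was lower (-0.45, adjusted p = 0.014). Ldha differed by 0.03, with an interval of -0.23 to 0.29. The calls of Ldhb and Pdk1 were lost with spike-in scaling (0.55 and -0.33) and when limma used these groups alone, and that of Pdk1 was lost without Fv2E-PERK mock replicate 2 (-0.38) or without wild-type mock replicate 1 (-0.39). The members' median was 0.19, against -0.05 over all entries tested.

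Over the 12 arrays of the PERK experiment the levels of Ldha and Pdk1 had a Pearson correlation of 0.9929, those of Slc16a3 and Pdk1 0.97, and those of Ldha and Slc16a3 0.9587. Among 14213 named entries, those most alike in pattern were Cdh22 (0.996) and Gm13315 (0.9943) for Ldha, Ak4 (0.9954) and Idh2 (0.9927) for Slc16a3, and Fam162a (0.9964) and Igsf21 (0.9952) for Pdk1. For Ldhb they were Npy (0.9827) and Cpne2 (0.9805), for Slc16a1 Gm13304 (0.9666) and Pou5f2 (0.9486), and for Hk1 Begain (0.9801) and Cacna1g (0.9792). These correlations describe arrays that share their treatment groups, and high values were common: the 100th most alike entry still had 0.9746 for Ldha and 0.9762 for Pdk1.

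Among the partners of lactate and pyruvate handling, the chaperones that bring the carriers to the membrane fell with AP20187. Bsg, the chaperone of SLC16A1 and SLC16A3, had levels of 5.95 and 6.09 in the Fv2E-PERK mock, 4.91 and 5.04 at 6 h and 4.92 and 4.94 at 48 h, with changes of -1.05, -1.50, -1.31 and -1.09 at 6, 12, 24 and 48 h (limma's adjusted p at most 2.1e-05). Its relative Emb changed by -1.36, -1.22, -1.06 and -1.0. Mpc1, a subunit of the mitochondrial pyruvate carrier, changed by -0.76 at 6 h and 48 h, and Pcx, which turns pyruvate into oxaloacetate, by -0.53 at 6 h and -1.46 at 48 h. Slc16a11, which had levels of -2.11 and -2.09 in the Fv2E-PERK mock, rose by 1.68, 2.68, 1.76 and 0.46, and Slc16a6, a carrier of ketone bodies, rose by 0.84 at 6 h and 0.63 at 48 h. Of 15 tested of 18, 2, 2, 3 and 4 rose and 8, 7, 8 and 8 fell at the 4 times, with medians of -0.30, -0.13, -0.61 and -0.60 (-0.32, -0.37, -0.64 and -0.60 with genes below background at their bound, or left out where no bound could be given). With spike-in scaling 4, 7, 6 and 6 rose and 1, 1, 0 and 2 fell: the call of Bsg was then lost at 6, 24 and 48 h (-0.38, -0.38 and -0.50), that of Emb at 12, 24 and 48 h and those of Mpc1 at all 4 times, Mpc1 turned to 0.08 at 12 h and 0.19 at 24 h, and Pcx turned to 0.14 at 6 h. Over all entries 24.9%, 27.1%, 27% and 27.2% rose and 40%, 40.5%, 40.4% and 34.6% fell with percentile scaling. The shares with spike-in scaling were 38.9%, 44.9%, 55.5% and 43.1% higher and 4.61%, 6.14%, 3.87% and 5.66% lower, for the lists below too. The rises at 48 h include Slc16a4, which was tested only through that group and was at least 1.73-fold higher.

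In the pyruvate dehydrogenase complex and its regulators the kinase Pdk2 was called lower at all 4 times. Its levels were -0.80 and -0.51 in the Fv2E-PERK mock, -2.67 and -2.64 at 6 h and -1.50 and -1.49 at 48 h, with changes of -2.0, -1.97, -1.51 and -0.84 (limma's adjusted p = 0.0016 at 48 h, a call lost with spike-in scaling at -0.25). The phosphatase Pdp1, which acts against the kinases, rose by 1.0, 1.27, 0.67 and 0.45, and the call at 48 h was lost without either 48 h array or without Fv2E-PERK mock replicate 2 (0.34 to 0.49). Of 9 tested of 11, 3, 3, 2 and 2 rose and 4, 3, 2 and 3 fell, with medians between -0.12 and -0.09 at the 4 times. Over all entries 24.9%, 27.1%, 27% and 27.2% rose and 40%, 40.5%, 40.4% and 34.6% fell. With spike-in scaling 4, 4, 7 and 3 genes of the list rose and 1, 1, 1 and 0 fell.

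For glucose entry and phosphorylation, Slc2a1, the carrier GLUT1, had levels of 4.15 and 4.37 in the Fv2E-PERK mock, 1.92 and 1.96 at 6 h and 1.96 and 2.02 at 48 h. Its changes were -2.32, -2.56, -2.19 and -2.27 (limma's adjusted p at most 4.0e-06). G6pc2, the islet glucose-6-phosphatase, changed by -2.65, -2.47, -2.21 and -2.06, and both kept their calls with spike-in scaling. Hkdc1, a further hexokinase, changed by -0.82, -2.0 and -1.25 at 6, 12 and 24 h and by 0.07 at 48 h, and its calls at 6 and 24 h were lost with spike-in scaling. Of 7 tested of 9, 0, 0, 0 and 1 rose and 4, 3, 4 and 2 fell, with medians of -0.82, -0.70, -1.25 and -0.30. Over all entries 24.9%, 27.1%, 27% and 27.2% rose and 40%, 40.5%, 40.4% and 34.6% fell. Slc2a2 was not well above background in the mock and at 6 h, which makes its calls those of a dim probe. The 1 rise, at 48 h, was of a gene not well above background in the mock, and its call was lost without any 1 of the 4 arrays compared (adjusted p between 0.052 and 0.075). Without these dim genes, for which no bound could be given, the median at 12 h was -2.0. With spike-in scaling 1, 0, 3 and 2 rose and 2, 3, 2 and 2 fell.

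In the NADH shuttles, which carry the electrons of glycolysis into mitochondria in place of lactate formation, 1, 1, 2 and 3 of 9 rose and 6, 7, 5 and 5 fell, with medians of -0.62, -0.66, -0.43 and -0.35. Over all entries 24.9%, 27.1%, 27% and 27.2% rose and 40%, 40.5%, 40.4% and 34.6% fell. Mdh1 changed by -1.36 at 6 h and -1.04 at 48 h, and Gpd1, the cytosolic glycerol-phosphate dehydrogenase, rose by 1.29 at 24 h and 2.27 at 48 h. With spike-in scaling 2, 2, 4 and 3 rose and 1, 0, 0 and 1 fell, and the calls of Mdh1 were lost at 12, 24 and 48 h.

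Among 7 regulators of lactate genes, Myc, an activator of Ldha, had levels of -1.85 and -1.84 in the Fv2E-PERK mock, 0.65 and 0.67 at 6 h and 0.71 and 0.83 at 48 h, and it rose by 2.5, 2.77, 3.45 and 2.62 (limma's adjusted p at most 2.9e-06). Egln1 and Egln3, the oxygen sensors that mark hypoxia-inducible factor for degradation and are themselves among its targets, both fell. The changes were -1.92, -2.37, -2.19 and -2.14 for Egln1 and -2.33, -2.42, -2.34 and -2.31 for Egln3. These calls were kept with spike-in scaling, and the activity of hypoxia-inducible factor was not tested. Hif1a was called at 24 h (0.54), a call lost without Fv2E-PERK mock replicate 2 (0.47) or without 24 h replicate 1 (0.31). Of the list 3, 2, 2 and 2 rose and 3, 3, 4 and 4 fell, with medians of -0.19, 0.13, -0.24 and -0.39. Over all entries 24.9%, 27.1%, 27% and 27.2% rose and 40%, 40.5%, 40.4% and 34.6% fell. With spike-in scaling 3, 4, 4 and 2 genes of the list rose and 2 fell at each time.

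Other genes reported as low in beta cells did not share a direction: of 12 tested of 16, 4, 5, 5 and 8 rose and 5, 6, 4 and 3 fell at the 4 times, with medians of -0.32, -0.22, 0.07 and 0.83 (-0.59, -0.35, -0.16 and 0.50 with genes below background at their bound or left out). Over all entries 24.9%, 27.1%, 27% and 27.2% rose and 40%, 40.5%, 40.4% and 34.6% fell. The rises of the list include Smad3 at each time and Zfp36l1 at 12 and 48 h. Both were well above background on no mock array and were tested only through AP20187 groups. No bound could be given for Smad3 at 6 h or Zfp36l1 at 12 h. Maf changed by -1.68 at 6 h, Lmo4 rose by 0.89 at 6 h, and Smad3, below background in the mock, was at least 1.95-fold higher at 12 h and 2.19-fold higher at 48 h. Cxcl12, a chemokine, changed by 0.63 at 6 h and -1.01 at 48 h. With spike-in scaling 5, 6, 8 and 8 rose and 1, 1, 0 and 1 fell, and Cxcl12 at 48 h no longer passed (-0.42).

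**Figure D3:**
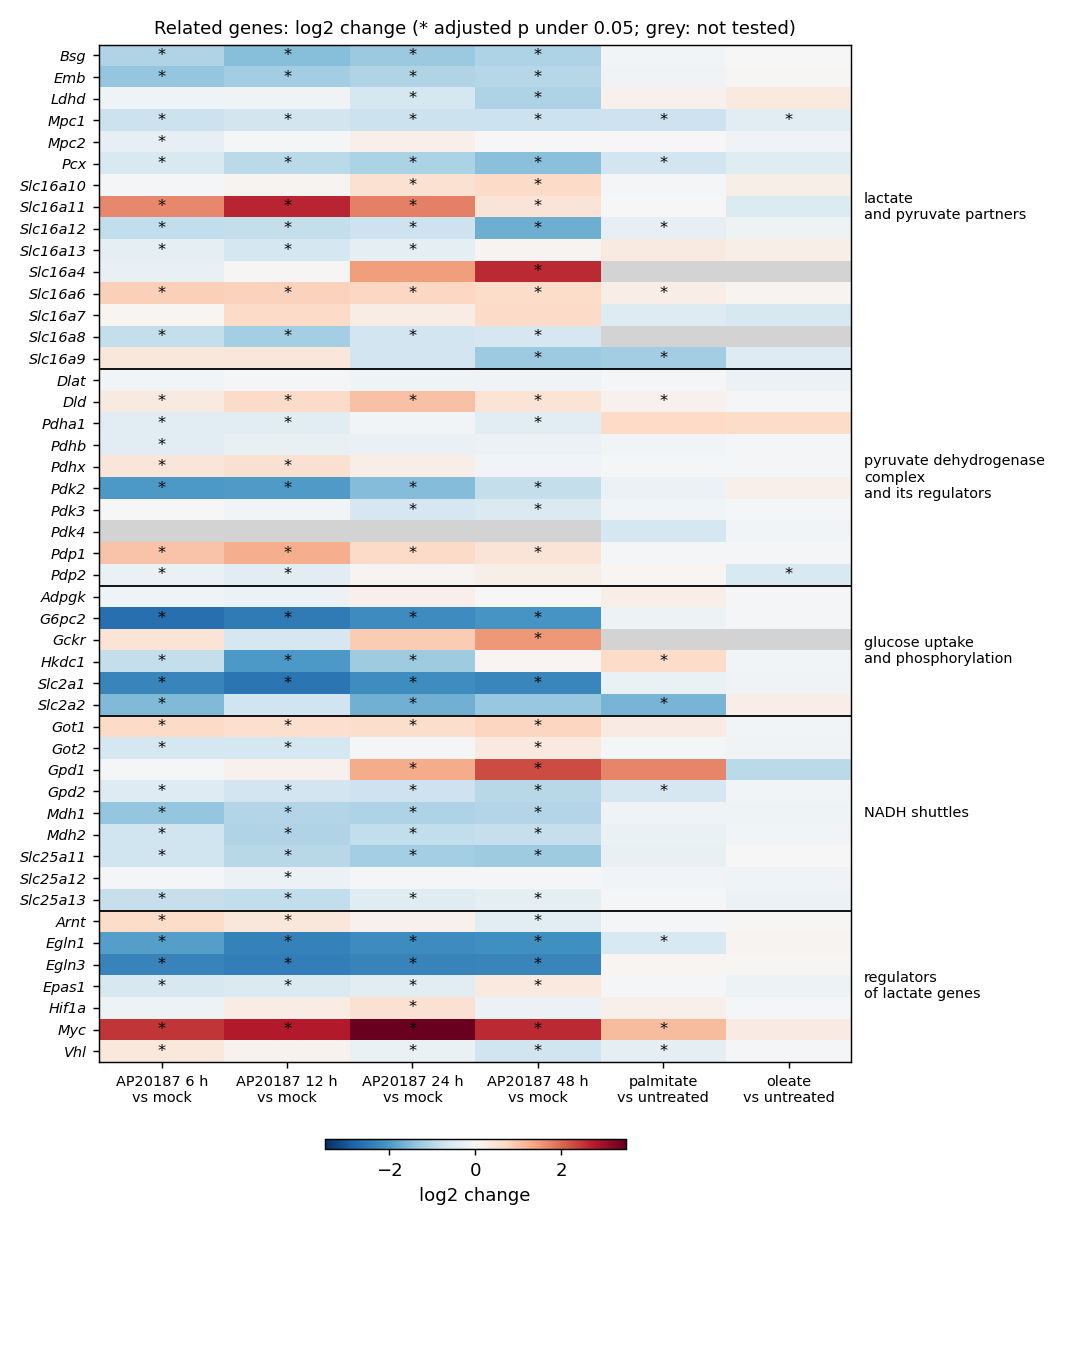
Log2 changes from the Fv2E-PERK mock at 6, 12, 24 and 48 h of AP20187 and from untreated cells with palmitate and oleate, for genes of 5 related lists, each on its own line, coloured by size and direction, with a star where limma's adjusted p passed and grey where the gene was not tested. Slc2a1, G6pc2, Egln1 and Egln3 lie near or below -2 at all 4 times, and Myc lies at 2.5 to 3.45.

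With palmitate the changes of the 6 members tested lay between -0.39 and 0.48 on the log2 scale. Ldhb was lower and Hk1 higher with palmitate, Pdk1 was called lower by a narrow margin, and Ldha, Slc16a3 and Slc16a1 did not pass the threshold. Oleate changed 0 of the 6 tested at the adjusted threshold, where 0.837% of all entries were called, 0.334% higher and 0.503% lower. Of these oleate calls 39.9% were higher, against 53.2% with normexp, 51.7% with quantile normalization, 75% with spike-in scaling and 70.1% in the series matrix.

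Ldhb had levels of 1.07, 1.14 and 1.20 with palmitate, 1.37, 1.36 and 1.34 with oleate, and 1.45, 1.47 and 1.52 in untreated cells. The groups did not overlap, and palmitate was lowest. The change with palmitate was -0.35 ± 0.05 SE from untreated cells (limma's adjusted p = 0.0030) and -0.22 from oleate (adjusted p = 0.022), and with oleate it was -0.12 (adjusted p = 0.277). The call against oleate was lost without any 1 of the oleate arrays or without palmitate replicate 1 or 2 (-0.23 to -0.19), and with spike-in scaling neither palmitate comparison passed (-0.17 and -0.04).

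Hk1 had levels of 1.80, 1.92 and 1.53 with palmitate, 1.54, 1.57 and 1.42 with oleate, and 1.27, 1.29 and 1.25 in untreated cells. All palmitate and oleate arrays lay above the untreated ones, and palmitate overlapped with oleate. The change with palmitate was 0.48 ± 0.10 SE (limma's adjusted p = 0.013), that with oleate was 0.24 (adjusted p = 0.284), and the second probe gave 0.40 with palmitate (adjusted p = 0.147). In the series matrix the palmitate change was 0.25 (adjusted p = 0.668).

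Pdk1 had levels of 2.40, 2.40 and 2.04 with palmitate, 2.58, 2.72 and 2.49 with oleate, and 2.68, 2.76 and 2.57 in untreated cells. Palmitate lay below both other groups, which overlapped. The lowest palmitate level, 2.04, was that of replicate 3, the array on a slide of its own. The change with palmitate was -0.39 ± 0.11 SE (limma's adjusted p = 0.044), a call lost without any 1 of the 6 arrays compared (-0.45 to -0.27), and the difference from oleate was -0.31 (adjusted p = 0.107).

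Ldha had levels of 7.96, 8.11 and 7.80 with palmitate, 8.07, 8.07 and 8.0 with oleate, and 8.21 and 7.95 in untreated cells, whose replicate 2 was left out as an outlier spot. The groups overlapped, and the difference of -0.12 with palmitate (adjusted p = 0.478 in limma's test) had an interval of -0.39 to 0.14. With spike-in scaling that difference turned to 0.09. Slc16a3 had 5.29, 5.39 and 4.94 with palmitate, 5.46, 5.55 and 5.45 with oleate, and 5.74, 5.54 and 5.33 in untreated cells, a difference of -0.33 ± 0.14 SE with palmitate (adjusted p = 0.132). Palmitate lay below oleate and overlapped with untreated cells. Slc16a1 had -4.55, -4.23 and -3.73 with palmitate, -4.10, -4.29 and -3.94 with oleate, and -3.46, -4.58 and -4.27 in untreated cells, where replicate 2 was not well above background, and its groups overlapped.

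**Figure D4:**
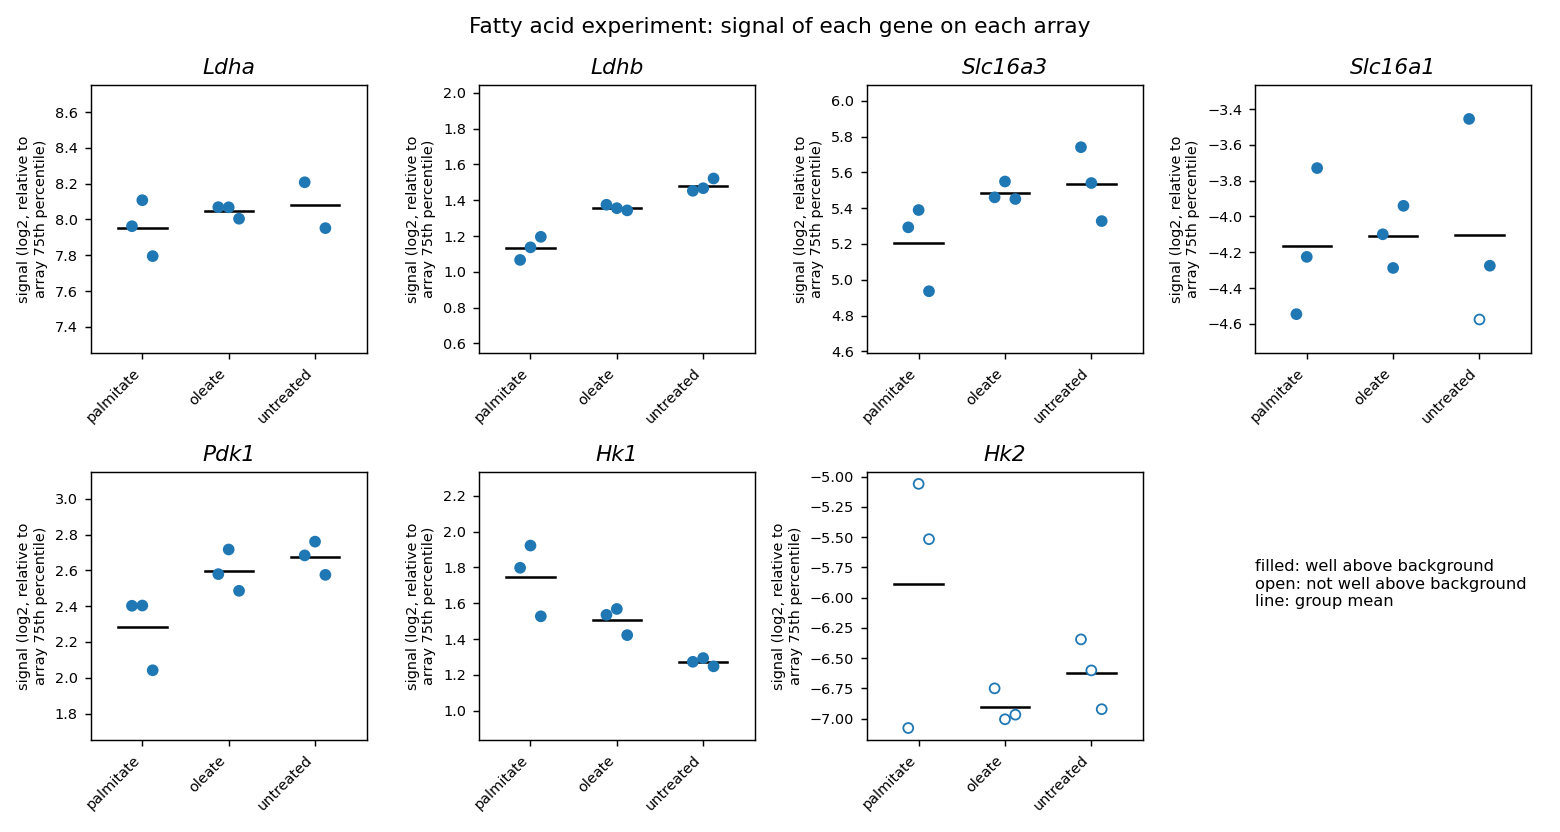
Level of each of the 7 genes (log2 signal minus the array's 75th percentile) on the 9 arrays of the fatty acid experiment, palmitate, oleate and untreated; filled points are well above background and open points are not. Ldhb separates the groups, with 1.07 to 1.20 for palmitate and 1.45 to 1.52 for untreated cells, and Ldha overlaps.

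With palmitate 1 member rose and 2 fell of 6 tested, where 20.1% of all entries were called (7.41% higher and 12.6% lower). With spike-in scaling 1 was called, where 5.32% of all entries were higher and 0.752% lower, and in the series matrix 0, where 1.14% were higher and 1.44% lower. The members' median was -0.23 against -0.05 over all entries tested. Against oleate 1 was lower, where 13.8% of all entries were called, 7.48% higher and 6.27% lower (6.02% and 0.451% with spike-in scaling, 0.691% and 1.23% in the series matrix, with 0 members called in each). Among related genes, Mpc1 (-0.74), Pcx (-0.68) and Gpd2 (-0.60) fell and Myc (1.1) and Hkdc1 (0.65) rose with palmitate. Of these calls those of Pcx and Gpd2 were lost with spike-in scaling (-0.50 and -0.42), and those of Pcx, Myc and Hkdc1 without palmitate replicates 1 and 2 (-0.66, 0.78 and 0.49). Of 13 lactate and pyruvate partners tested, 1 rose and 4 fell with palmitate (median -0.10, which turned to 0.08 with spike-in scaling). Mpc1 was also called with oleate (-0.41), a call lost without any 1 of the 6 arrays compared.

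Muscle transcripts moved with the palmitate comparison. The summed signal of 9 heart muscle genes, in units of the 75th percentile, was 0.872 to 1.76 with palmitate, 15.2 to 16.5 with oleate and 13.9 to 17.9 in untreated cells, with 2 to 5 of 9 genes well above background with palmitate, 8 or 9 with oleate and 8 in untreated cells, and Tnnt2, Tnni3 and Mybpc3 above it on no palmitate array. The median of 10 skeletal muscle genes was 0.97 and 0.85 on palmitate replicates 1 and 2 and -4.62 on replicate 3, and their summed signal was 1.29 to 24.4 with palmitate, 1.62 to 1.79 with oleate and 1.74 to 1.87 in untreated cells. Heart muscle is rich in LDHB and muscle also expresses hexokinases 1 and 2, and the part of these transcripts in the palmitate results was not tested. Without palmitate replicates 1 and 2, Ldhb changed by -0.28 (limma's adjusted p = 0.053913) and Hk1 by 0.26 (adjusted p = 0.107), and 1 member was called. Palmitate is then 1 array, on a slide of its own, with its spread taken from the other groups. The heart muscle sum on that array was 0.872, against 13.9 to 17.9 in untreated cells, so this fit still holds the heart muscle difference. In the PERK experiment the summed signal of the heart list was 1.14 to 2.53 with AP20187 and 0.544 to 0.680 in both mocks. Ryr2, which was well above background on every array of the series, made up most of that sum at 6 h. Its levels were 1.01 and 1.24 at 6 h, against -1.23 and -1.16 in the Fv2E-PERK mock. The list's median was -6.71 and -6.51 on the 6 h arrays, -4.06 and -4.38 on the 48 h arrays, and -6.12 and -5.73 in that mock. On each 48 h array 5 of 9 heart genes were well above background, against 2 in that mock. Among those gained, Myl2 passed on 2 of 2 arrays from 24 h onward. At 48 h Myh6 passed on 2 of 2 arrays, while Tnni3 and Mybpc3 passed on 1 of 2 each. Of 4 heart genes tested, 4 were called higher at 48 h, where 27.2% of all entries were. Myh6 and Myl2 were well above background on no mock array and were tested only through AP20187 groups. Their calls therefore follow in part from the filter. Myl2 was at least 1.44-fold higher at 48 h, and no bound could be given for Myh6. Tnnt2 and Myl7 were well above background on no array of the PERK experiment. The summed signal of the skeletal list was 0.761 to 1.18 with AP20187 and 1.23 to 1.42 in both mocks.

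**Figure D5:**
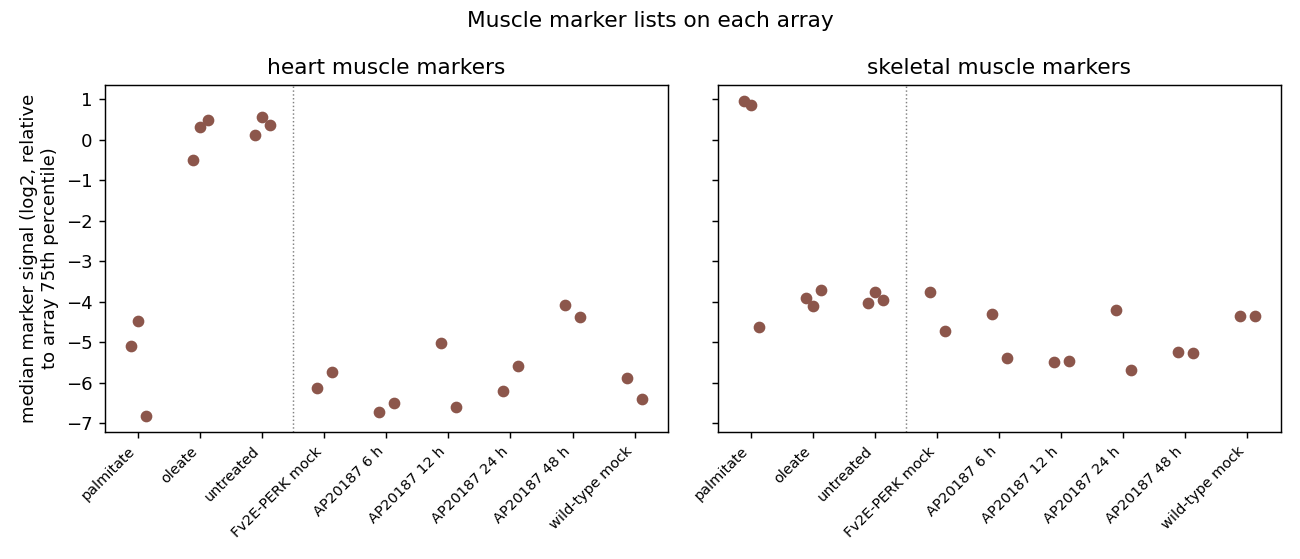
Median level of the heart muscle and skeletal muscle gene lists on each array (log2 signal minus the array's 75th percentile), by group. The heart list is low on all palmitate arrays and near 0 with oleate and in untreated cells, and the skeletal list is high on palmitate replicates 1 and 2, at 0.97 and 0.85.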

How the data were processed

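Per the file headers, the authors extracted the deposited spot intensity values with Agilent Feature Extraction 10.7.1.1 from 1-colour arrays, with background subtracted. The deposited series matrix holds log2 values of the same arrays, made by steps that the sources used here do not give, and served as an alternative. Control spots and outlier spots were left out, each array's 75th percentile was subtracted from its log2 intensity, and the brightest probe over all 21 arrays stood for each symbol or accession (37208 entries). An entry was tested where every array of 1 or more groups of its experiment had it well above background (21279 and 23386), with limma 3.58.1 in R 4.3.3 on all groups of an experiment, Benjamini-Hochberg adjustment over all entries and a threshold of 0.05. The labels number 1 array of the wild-type mock differently in its title and its source name, and the title was followed. Symbols came from RefSeq accessions, for 26582 of 55681 probes. Named genes were the 7 members, those of the lists past the threshold, and the 2 entries most correlated with each member. A gene of the lists is counted but not reported here by name. The members and lists were chosen with earlier results of these data known. Alternatives were normexp (offset 50, on median spot intensity), quantile and spike-in scaling, no filter on dim probes, the second probe, the series matrix, replicate and slide blocks, only the groups compared, and arrays left out. The comparison of 48 h with wild-type mock cells and a variance trend were added after seeing the data. The limma steps were tested on simulated data. Replicate numbers were not taken as pairing samples: deviations of same-numbered arrays correlated by -0.03 to 0.04 (fatty acids) and -0.01 to 0.13 (PERK).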

Additional observations from a re-analysis of the deposited data

How the results depend on the processing

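The calls of Ldha, Slc16a3 and Pdk1 at 6, 12, 24 and 48 h of AP20187 kept their direction and their side of the threshold under every alternative run. Spike-in scaling changed the count of members called to 3 at 6 h and 3 for 48 h against 6 h (5 in each as reported), to 1 for the Fv2E-PERK mock against the wild-type mock (3), as did fitting only these groups (1), to 1 for palmitate against untreated (3) and to 0 for palmitate against oleate (1). For palmitate against untreated the series matrix gave 0 and leaving out palmitate replicates 1 and 2 gave 1. For palmitate against oleate, no filter on dim probes, the series matrix and leaving out palmitate replicates 1 and 2 gave 0 each, the slide as a fixed block gave 2, and leaving out 1 array gave 0 to 2. With the replicate block this count was 2, since Pdk1 passed (-0.31), and the block changed no other call of a member. Smaller changes of a count are not all listed. Among them, spike-in scaling gave 1 higher and 3 lower at 24 h and at 48 h, where 1 higher and 5 and 4 lower were reported. Normexp gave 1 higher and 5 lower at 48 h. For palmitate against untreated, normexp and quantile normalization each gave 1 higher and 1 lower, where 1 and 2 were reported. Some values changed sign. For Hk1 they were 0.47 at 6 h and 0.70 at 12 h with spike-in scaling, -0.14 to 0.089 at 12 h with 1 array left out, and -0.046 for palmitate against oleate in the series matrix. For Ldha, palmitate against untreated gave 0.094 (spike-in), 0.13 (matrix) and -0.25 to 0.0034 (1 array left out), palmitate against oleate 0.10 (spike-in), oleate against untreated 0.069 (quantile), 0.51 (matrix), 0.041 (second probe) and -0.16 to 0.095 (1 array left out), and the mocks -0.039 to 0.10 (1 array left out). For Slc16a1, 48 h gave 0.17 (spike-in) and -1.07 to 0.23 (1 array left out), and the mocks -0.31 to 0.98 (1 array left out). Its palmitate against untreated gave 0.12 (spike-in), 0.37 (without palmitate replicates 1 and 2) and -0.30 to 0.26 (1 array left out), palmitate against oleate 0.021 (normexp), 0.13 (spike-in), 0.38 (without palmitate replicates 1 and 2) and -0.28 to 0.13 (1 array left out), and oleate against untreated 0.0028 (quantile), 0.054 (matrix) and -0.24 to 0.32 (1 array left out). For Slc16a3, oleate against untreated gave 0.0068 (normexp), 0.0096 (quantile), 0.012 (matrix), 0.17 (second probe) and -0.15 to 0.053 (1 array left out). The cause of these changes was not tested. In the PERK experiment leaving out an array leaves a group of 1, assumed to vary like the others. Each of its groups lay on 1 slide, so no slide block could be fitted. Dim probes, Slc16a1 above all, limit the precision.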
